A study of Homo sapiens with 12 samples.

Results

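ABCA1, ABCG1, APOE, APOC1, PLTP, LPCAT3 and SMPDL3A are genes that the cholesterol-sensing liver X receptors (LXRs) are known to switch on. The products of ABCA1, ABCG1, APOE, APOC1 and PLTP move or carry cholesterol and phospholipid, and LPCAT3 and SMPDL3A encode enzymes. These genes were chosen by symbol, and each symbol matched 1 row of the count tables, which made 7 of the 19677 genes listed. Expression was measured by RNA sequencing of CAOV3 cells, an established human line of high-grade serous ovarian carcinoma, grown in DMEM with 10% fetal bovine serum and antibiotics. The 12 libraries fell into 4 groups of 3. Control cells received the solvent DMSO. The ascites group received DMSO and 10% ascites, the fluid that gathers in the abdomen of people with ovarian cancer. A further group received 200 uM bezafibrate, a fibrate drug that activates the fatty acid receptors called PPARs, and the last received bezafibrate and ascites together. Each exposure lasted 16 hours according to the labels, which list no time for the control. DMSO is named only for the groups without the drug, so the effect of bezafibrate and that of leaving out the solvent cannot be told apart. All 4 groups are 1 cell line in serum. The labels do not say whether replicates were separate cultures, or how many people gave the ascites, so p-values measure the spread between these libraries, which may be technical.

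LXRs are nuclear receptors that bind oxysterols, which are oxidised forms of cholesterol, and they act on DNA as heterodimers with the retinoid X receptors. Their best-known targets pump cholesterol out of the cell (ABCA1, ABCG1), carry it as part of lipoproteins (APOE, APOC1, PLTP) or remodel phospholipids (LPCAT3). The pathway is best known in macrophages and liver, where NR1H3, the gene of LXR alpha, is itself a PPAR-regulated gene in some cells, which ties fatty acid sensing to cholesterol export.

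In these cells bezafibrate raised ABCA1, ABCG1, APOC1 and LPCAT3 by 1.74-fold to 1.94-fold without ascites, and by 1.77-fold to 1.95-fold with it. APOE rose 1.34-fold and PLTP 1.07-fold without ascites, and neither passed the test with ascites present. SMPDL3A did not pass it in either setting, and ascites itself moved no member past the test. NR1H3 rose with the drug in both settings by 1.10 on the log2 scale. Levels below are in CPM, the count of a gene over the scaled total of its library, and they are not divided by gene length, so they compare groups for 1 gene and not genes with each other. A gene was called when its p-value from edgeR's quasi-likelihood test, adjusted by Benjamini-Hochberg over the 12470 genes tested, was under 0.05. All 7 members were among the genes tested.

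**Figure D1:**
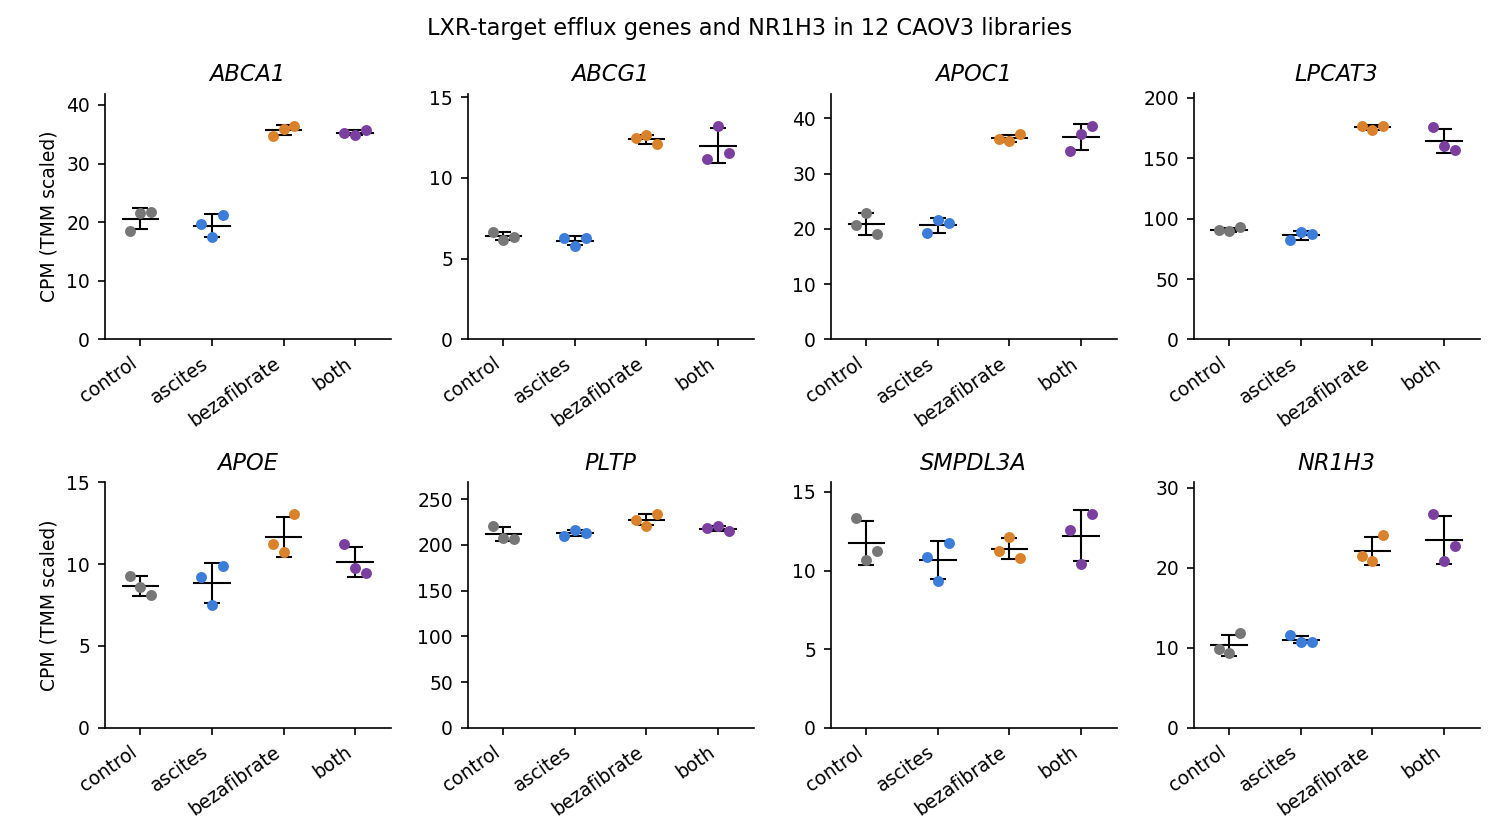
Level of each member and of NR1H3 in CPM (vertical axes, starting at 0) in the 4 groups. Each point is 1 library, the horizontal line is the group mean and the bars are the SD over 3 libraries. ABCA1, ABCG1, APOC1, LPCAT3 and NR1H3 sit higher in all 6 libraries given bezafibrate than in all 6 without it, and the groups of SMPDL3A overlap.

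Total counts ran from 11831093 to 18762759 per library, and 14206 to 14595 genes had at least 1 count. The first principal component, with 37.0% of the variance, placed the 6 libraries given bezafibrate apart from the 6 without it. Replicate 3 of the combination stood apart from the other libraries on the second component (9.88% of the variance, -22.4 against -4.37 to 9.84), and without it the same count of 4 members was called in the combination against ascites. PDK4, a PPAR target that restrains glucose oxidation, went from 8.26 to 139 CPM with bezafibrate, a log2 change of 4.07 (SE 0.0680, adjusted p = 6.14e-34). Epithelial genes EPCAM, KRT7, KRT8 and KRT18 were at 1 CPM or more in the mean of the libraries. Of the markers of serous carcinoma, PAX8, WT1, MUC16, FOLR1 and MSLN were under 1 CPM and SOX17 was at 0 in all 12 libraries, so the labelled cell type rests here on its epithelial genes. In that list KRT7 rose by 0.55 and PAX8, at 0.378 CPM in the control, by 1.48 with bezafibrate. Of 12 macrophage and leukocyte markers, 7 were at 0 in every library (PTPRC, CD163, TYROBP, C1QA, C1QB, FCGR3A and AIF1). Their summed level was 2.93 to 3.89 CPM in the control, 2.29 to 3.83 with ascites, 3.07 to 4.70 with bezafibrate and 3.28 to 5.35 with both, mostly from CD14, and 0 of the 2 tested were called with the drug. The 10 fibroblast and mesothelial markers summed to 233 to 246 CPM in the control, 231 to 237 with ascites, 189 to 201 with bezafibrate and 187 to 201 with both. Most of the sum was LUM and PDGFRA, at 184 and 43.2 CPM in the control. None was at 0 in every library, but 6 averaged under 1 CPM (COL1A2, DCN, PDGFRB, CALB2, MSLN and UPK3B). COL1A2 and DCN had 2 and 3 counts over the 12 libraries. UPK3B, which was not tested, went from 0.168 to 0.450 CPM with bezafibrate. In that list COL1A1, COL3A1, LUM and PDGFRA fell with bezafibrate, by 0.68, 0.71, 0.17 and 1.00 on the log2 scale. The part of this fall in the results below was not tested. In bulk RNA, fewer cells of a type and less RNA per cell cannot be told apart.

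The members lie on 6 chromosomes (GRCh38, GENCODE 29). ABCA1 (ENSG00000165029.17) spans chr9:104781002-104928237 on the minus strand and ABCG1 (ENSG00000160179.19) chr21:42199689-42297244 on the plus strand. APOE (ENSG00000130203.10, chr19:44905754-44909393) and APOC1 (ENSG00000130208.10, chr19:44914247-44919349) are neighbours on the plus strand with 4853 bases between them. PLTP (ENSG00000100979.15) lies at chr20:45898621-45912155 on the minus strand, LPCAT3 (ENSG00000111684.11) at chr12:6976186-7018510 on the minus strand, and SMPDL3A (ENSG00000172594.13) at chr6:122789049-122809720 on the plus strand.

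LXR and retinoid X receptor dimers are known to bind direct repeats of AGGTCA spaced by 4 bases (DR4), and PPAR and retinoid X receptor dimers those spaced by 1 base (DR1). Both were searched on both strands, with at most 2 mismatches in the 12 specified letters, from 250 bases before to 50 bases after each RefSeq gene start (GRCh38.p14). A DR4 match was in 2.34% of the 35116 windows of all genes and a DR1 match in 2.97%. The table held 8 windows for 5 members, namely ABCA1, APOE, APOC1, PLTP and LPCAT3. A DR4 match was in 1 of the 8 windows, that of ABCA1, and a DR1 match in 0. The windows of NR1H3, PDK4, ANGPTL4, SREBF1 and MYLIP held neither. A match describes letters and not binding, and the lack of one says only that those letters are not in the window. The 250 bases before the starts of ABCA1, which holds the match, and LPCAT3, a member with a rise of similar size and no match, are printed 5′ to 3′ on the gene's strand, with the match in capitals. They are chr9:104928156-104928405 and chr12:7018477-7018726, both on the minus strand.
ABCA1: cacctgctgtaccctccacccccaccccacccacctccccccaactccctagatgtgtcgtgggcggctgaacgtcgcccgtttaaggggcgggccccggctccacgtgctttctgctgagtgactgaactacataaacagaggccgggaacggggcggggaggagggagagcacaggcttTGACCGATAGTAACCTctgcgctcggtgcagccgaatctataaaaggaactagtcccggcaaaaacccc
LPCAT3: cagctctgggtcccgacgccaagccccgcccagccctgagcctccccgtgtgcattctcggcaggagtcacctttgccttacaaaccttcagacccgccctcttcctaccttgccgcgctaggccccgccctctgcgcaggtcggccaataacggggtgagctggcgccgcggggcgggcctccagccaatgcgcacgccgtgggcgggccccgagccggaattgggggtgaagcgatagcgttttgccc
Read on the other strand, the ABCA1 match is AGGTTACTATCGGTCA. It differs from the repeat at C5T and A11C, where the repeat's base comes first and positions count from 1 at its 5′ end. It lies at chr9:104928209-104928224, bases -69 to -54 before the RefSeq start, and inside an exon of ABCA1 in GENCODE 29, whose gene model starts further upstream.

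ABCA1 is the transporter that loads cholesterol and phospholipid onto lipid-poor apolipoprotein A-I. Its level was 18.5, 21.5 and 21.7 CPM in the control libraries and 34.7, 35.9 and 36.5 CPM with bezafibrate. With ascites it was 19.7, 17.4 and 21.2 CPM, and with both treatments 35.1, 34.9 and 35.7 CPM. All 6 libraries given the drug were above all 6 without it. Groups without overlap, in either direction, were common over all tested genes. They made up 33.5% with bezafibrate against control and 30.5% in the combination against ascites. The means were 20.6 ± 1.82 CPM in the control and 35.7 ± 0.894 CPM with bezafibrate (SD, n = 3 each), a log2 change of 0.80 (SE 0.0709, adjusted p = 1.81e-11, 1.74-fold, 95% interval 1.57 to 1.92). Under ascites the means were 19.4 ± 1.91 and 35.2 ± 0.418 CPM (SD, n = 3 each), a log2 change of 0.85 (SE 0.0734, adjusted p = 7.83e-12, 1.81-fold, 95% interval 1.63 to 2.0). In the order of levels bezafibrate came first, then both treatments, control and ascites. The ranges of the leading pair of groups overlapped and so did those of the last pair.

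ABCG1 exports cholesterol to particles that already hold lipid, such as mature high-density lipoprotein. It was counted at 74 to 235 reads per library, and its level was 6.68, 6.17 and 6.35 CPM in the control against 12.5, 12.6 and 12.1 CPM with bezafibrate. The ascites libraries were at 6.27, 5.78 and 6.26 CPM, and those with both treatments at 11.2, 13.2 and 11.6 CPM. Again the libraries given the drug lay above all others, in the same order of groups as for ABCA1. The mean rose from 6.40 ± 0.259 to 12.4 ± 0.284 CPM (SD, n = 3 each), a log2 change of 0.95 (SE 0.111, adjusted p = 1.29e-08, 1.94-fold, 95% interval 1.66 to 2.27). With ascites in both groups it rose from 6.10 ± 0.281 to 12 ± 1.09 CPM (SD, n = 3 each), or 0.97 on the log2 scale (SE 0.116, adjusted p = 2.31e-08, 1.95-fold, 95% interval 1.66 to 2.30).

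APOE, the ligand by which lipoproteins bind their receptors and an acceptor of exported cholesterol, had 96 to 200 reads per library. Its level was 9.27, 8.60 and 8.09 CPM in the control and 11.2, 10.8 and 13.1 CPM with bezafibrate. With ascites it was 9.18, 7.49 and 9.90 CPM, and with both treatments 11.2, 9.77 and 9.46 CPM. The drug libraries lay above the control ones, while the groups with ascites overlapped. The mean went from 8.65 ± 0.593 to 11.7 ± 1.21 CPM without ascites (SD, n = 3 each), a log2 change of 0.42 (SE 0.116, adjusted p = 0.00752, 1.34-fold, 95% interval 1.14 to 1.58). This call rested on replicate 3 of the bezafibrate group: without that library the adjusted p was 0.0629. With ascites the log2 change was 0.20 (95% interval -0.04 to 0.45, adjusted p = 0.291). The difference between these 2 responses was -0.22 (95% interval -0.56 to 0.12, unadjusted p = 0.196, adjusted p = 0.999), so APOE was not shown to respond less under ascites.

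APOC1, a small apolipoprotein encoded next to APOE that inhibits the cholesteryl ester transfer protein, had 240 to 666 reads per library. Its level was 20.7, 22.9 and 19 CPM in the control and 36.2, 35.8 and 37.1 CPM with bezafibrate. Under ascites it was 19.2, 21.6 and 21.1 CPM, and with both treatments 34.1, 37.1 and 38.7 CPM. The 6 drug libraries lay above the other 6. The mean rose from 20.9 ± 1.95 to 36.4 ± 0.655 CPM (SD, n = 3 each), a log2 change of 0.80 (SE 0.0705, adjusted p = 1.57e-11, 1.74-fold, 95% interval 1.57 to 1.92). Under ascites it rose from 20.6 ± 1.3 to 36.6 ± 2.30 CPM (SD, n = 3 each), by 0.82 (SE 0.0724, adjusted p = 1.43e-11, 1.77-fold, 95% interval 1.60 to 1.96). Here both treatments gave the highest mean and bezafibrate the next, and their ranges overlapped. Of the exon bases of APOC1, 43.2% overlap a same-strand gene model (AC011481.3) that is not in the tables used, so how shared reads were assigned is uncertain.

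PLTP, the phospholipid transfer protein that moves phospholipid between lipoproteins, had 2544 to 4112 reads per library. Its level was 220.3, 208 and 207 CPM in the control and 228, 221 and 234 CPM with bezafibrate. With ascites it was 210.2, 216 and 213 CPM, and with both treatments 219, 220.3 and 215 CPM. The lowest bezafibrate library exceeded the highest control library only narrowly, and the groups with ascites overlapped. The mean went from 212 ± 7.61 to 228 ± 6.27 CPM (SD, n = 3 each), a log2 change of 0.10 (SE 0.0335, adjusted p = 0.0258, 1.07-fold, 95% interval 1.02 to 1.13). That call was lost in 8 of 15 other settings, among them leaving out control replicate 2 or 3 or bezafibrate replicate 1 or 3, with adjusted p up to 0.148. With ascites the log2 change was 0.03 (95% interval -0.04 to 0.10, adjusted p = 0.594). Of the exon bases of PLTP, 7.87% overlap CTSA on the opposite strand, and CTSA had a log2 change of 0.02 with bezafibrate (adjusted p = 0.830).

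LPCAT3 is the acyltransferase that puts polyunsaturated chains into membrane phospholipids, and it had 1141 to 3223 reads per library. Its level was 90.7, 89.5 and 92.8 CPM in the control and 176, 173 and 177 CPM with bezafibrate. The ascites libraries were at 82.0, 89.1 and 87.3 CPM, and those with both treatments at 176, 160.2 and 157 CPM. All drug libraries lay well above the rest, and the ascites libraries lay below all 3 control libraries. The mean rose from 91.0 ± 1.68 to 176 ± 1.97 CPM (SD, n = 3 each), a log2 change of 0.95 (SE 0.0420, adjusted p = 4.86e-20, 1.93-fold, 95% interval 1.82 to 2.05). With ascites it rose from 86.1 ± 3.66 to 164 ± 9.96 CPM (SD, n = 3 each), by 0.94 (SE 0.0430, adjusted p = 1.58e-19, 1.91-fold, 95% interval 1.80 to 2.03). The order of groups was that of ABCA1 and ABCG1. LPCAT3 shares 65.6% of its exon bases, 3100 of 4725, with EMG1 on the opposite strand, and whether the counts used strand is not stated in the sources used here. EMG1, a ribosome assembly gene, was at 103 ± 2.15 CPM in the control and 98.7 ± 5.11 CPM with bezafibrate (SD, n = 3 each), a log2 change of -0.05 (adjusted p = 0.462). With the reads of both genes summed, the log2 change was 0.50 without and 0.47 with ascites, and both were still called.

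SMPDL3A, a secreted phosphodiesterase related to acid sphingomyelinase, had 120 to 225 reads per library. Its level was 13.4, 10.7 and 11.3 CPM in the control and 11.3, 12.1 and 10.8 CPM with bezafibrate. Under ascites it was 10.9, 9.37 and 11.8 CPM, and with both treatments 12.6, 10.4 and 13.6 CPM. All 4 groups overlapped, and no neighbours in the order of means (both, control, bezafibrate, ascites) were separate. The log2 change with bezafibrate was -0.05 without ascites (95% interval -0.27 to 0.18, adjusted p = 0.848) and 0.19 with it (95% interval -0.04 to 0.42, adjusted p = 0.285). These intervals leave out a rise of the size seen for LPCAT3.

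Counted together, 6 of the 7 members rose with bezafibrate against control and 0 fell, where 17.6% of all tested genes were called and 10.1% were called higher. The members' median log2 change was 0.80, against -0.0037 over all tested genes. In the combination against ascites 4 of 7 rose, where 17.8% of tested genes were called and 10.5% called higher, and the members' median was 0.82. The same 4 members, ABCA1, ABCG1, APOC1 and LPCAT3, rose in the combination against control (18.2% of tested genes called, 10.3% called higher), by 0.78, 0.90, 0.80 and 0.86 on the log2 scale. Across all tested genes, 991 (7.95%) were called higher in both drug comparisons. The groups did not overlap for 6 members with bezafibrate against control and for 4 in the combination against ascites. This held, in either direction, for 33.5% and 30.5% of all tested genes. Averaged over the groups with and without ascites, a comparison added after the data were seen, the drug raised 6 of 7 members. There 28.3% of tested genes were called, and 53.2% of those called were higher. In that average APOE rose by 0.31 (SE 0.0837, adjusted p = 0.00406, 1.24-fold, 95% interval 1.10 to 1.40) and PLTP by 0.07 (SE 0.0239, adjusted p = 0.0290), while SMPDL3A was at 0.07 (95% interval -0.09 to 0.23, adjusted p = 0.555). The averaged PLTP call was lost in 12 of 20 other settings.

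**Figure D2:**
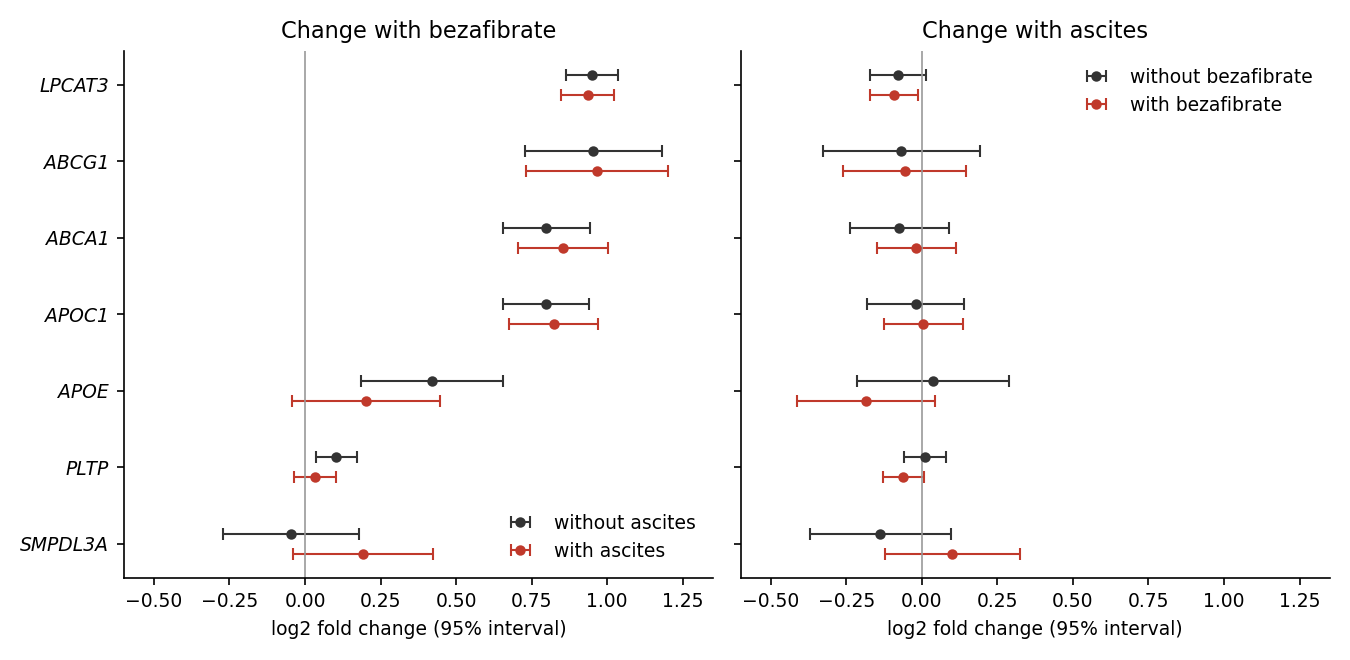
Log2 fold change of each member (horizontal axes) with its 95% interval, for bezafibrate without and with ascites (left) and for ascites without and with bezafibrate (right). The drug changes of ABCA1, ABCG1, APOC1 and LPCAT3 lie between 0.80 and 0.97, those of the other 3 members between -0.05 and 0.42, and the ascites changes between -0.18 and 0.10.

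Ascites changed 0 of 7 members against control, where 0.0882% of tested genes (11) were called, and 0 of 7 had an unadjusted p under 0.05 by edgeR (749 of all tested genes did). The members' log2 changes were -0.07 for ABCA1 (95% interval -0.24 to 0.09), -0.07 for ABCG1 (-0.33 to 0.19) and 0.04 for APOE (-0.21 to 0.29). They were -0.02 for APOC1 (-0.18 to 0.14), 0.01 for PLTP (-0.06 to 0.08), -0.08 for LPCAT3 (-0.17 to 0.01) and -0.14 for SMPDL3A (-0.37 to 0.10). With bezafibrate present, ascites again changed 0 of 7 by edgeR and by DESeq2, where 0.128% of tested genes (16) were called by edgeR. LPCAT3 was the 1 member at an unadjusted p under 0.05 there, as were 597 of all tested genes. Its log2 change was -0.09 (95% interval -0.17 to -0.01, adjusted p = 0.902), and the others lay between -0.18 (APOE) and 0.10 (SMPDL3A). Averaged over both drug settings, LPCAT3 was at -0.09 (SE 0.0302, unadjusted p = 0.00721, adjusted p = 0.416) and 0 of 7 members passed, where 0.281% of tested genes were called. For 1 member in each comparison, LPCAT3 without the drug and PLTP with it, the groups did not overlap, which held for 12.7% and 9.27% of all tested genes.

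The drug's effect with ascites was compared with its effect without ascites by the interaction term, which called 0 of 7 members and 0% of tested genes, with 445 tested genes at an unadjusted p under 0.05 by edgeR and 0 called by DESeq2. The difference in log2 change was 0.06 for ABCA1 (95% interval -0.15 to 0.27), 0.01 for ABCG1 (-0.32 to 0.34), 0.03 for APOC1 (-0.18 to 0.23) and -0.01 for LPCAT3 (-0.14 to 0.11). It was -0.07 for PLTP (-0.17 to 0.03) and 0.24 for SMPDL3A (-0.08 to 0.56, unadjusted p = 0.143). The intervals of LPCAT3 and PLTP are the narrowest, and those of ABCG1, APOE and SMPDL3A, which had the fewest reads, are the widest.

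The receptor genes upstream of the members were read from a list of 14 nuclear receptors and coregulators, 13 of which were tested. NR1H3 was at 9.82, 9.33 and 11.8 CPM in the control, 21.4, 20.8 and 24.0 with bezafibrate, 11.5, 10.7 and 10.8 with ascites and 26.7, 20.8 and 22.7 with both. Every library given the drug was above every library without it. The log2 change was 1.10 without ascites (SE 0.0996, adjusted p = 3.28e-11) and 1.10 with it (SE 0.0994, adjusted p = 2.72e-11). NR1H2, which encodes LXR beta, was at 0.18 (adjusted p = 0.157) and -0.00 (adjusted p = 0.986). With bezafibrate against control, 3 of the 13 rose and 1 fell (median 0.05), where 17.6% of all tested genes were called. PPARD, the gene of PPAR delta, rose by 0.62 (adjusted p = 1.02e-05), NCOR1, a corepressor of these receptors, by 0.26 (adjusted p = 8.15e-08), and PPARG, the gene of PPAR gamma, fell by 0.39 (adjusted p = 1.97e-08). With ascites in both groups 4 rose and 1 fell (median 0.05), where 17.8% of all tested genes were called. RXRG had 0 counts in the 12 libraries, which allows a level of up to 0.0173 CPM, counting error only.

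Other LXR targets were read from a list of 16 genes, NR1H3 among them, of which 8 were tested. With bezafibrate against control 4 rose and 1 fell (median 0.08), where 17.6% of all tested genes were called. Beside NR1H3, MYLIP, a ubiquitin ligase for the low-density lipoprotein receptor, rose by 0.33 (SE 0.0931, adjusted p = 0.0101), SCD, the stearoyl-CoA desaturase, by 0.30 (adjusted p = 4.29e-12) and ELOVL5, a fatty acid elongase, by 0.15 (adjusted p = 0.00218). RGS16, a regulator of G-protein signalling, fell by 0.56 (adjusted p = 0.0358). With ascites 2 rose, NR1H3 and SCD, and 1 fell (median 0.08), where 17.8% of all tested genes were called. MYLIP was then at 0.06 (adjusted p = 0.768) and RGS16 at 0.26 (adjusted p = 0.449). SREBF1, a textbook LXR target that drives fatty acid synthesis, was at 145, 143 and 143 CPM in the control and 129, 131 and 142 with bezafibrate, a log2 change of -0.10 (adjusted p = 0.0995). It was at 137, 139 and 136 CPM with ascites and 125, 123 and 111 with both, where it fell by 0.19 (SE 0.0433, adjusted p = 0.00106). Every library with both treatments was under every one with ascites. The transporter genes ABCG4, ABCG5 and ABCG8 had 15, 7 and 9 counts over the 12 libraries and were not tested.

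**Figure D3:**
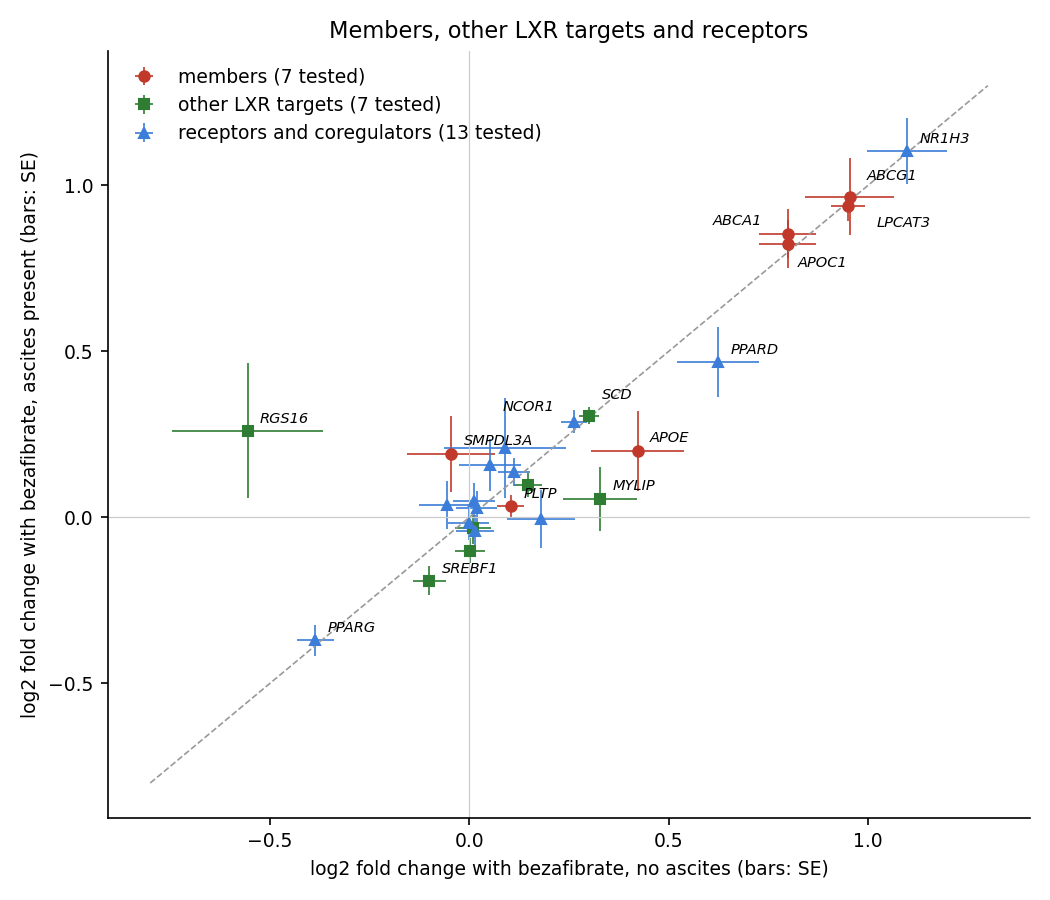
Log2 fold change with bezafibrate without ascites (horizontal axis) and with ascites (vertical axis) for the 7 members, 7 other LXR targets and 13 receptors and coregulators, NR1H3 shown among the receptors. Bars are SE and the dashed line marks equal change. ABCA1, ABCG1, APOC1, LPCAT3 and NR1H3 lie together at the upper right near that line, while SREBF1 lies below 0 on both axes.

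Genes that store, transport or export cholesterol formed a list of 20, with 18 tested. With bezafibrate against control 3 rose and 2 fell (median 0.08), and with ascites 6 rose and 1 fell (median 0.13). Of all tested genes, 17.6% and 17.8% were called in these 2 comparisons. APOA2, an apolipoprotein of high-density lipoprotein that is also a PPAR alpha target, rose by 1.39 (adjusted p = 1.24e-09) and 1.84 (adjusted p = 1.60e-11) in the 2 settings. SOAT1, which esterifies cholesterol for storage, rose by 0.35 (adjusted p = 9.76e-08) and STARD3, a sterol carrier of late endosomes, by 0.22 (adjusted p = 0.0251) without ascites. GRAMD1B, which moves cholesterol from the plasma membrane to the endoplasmic reticulum, fell by 0.61 (adjusted p = 0.00087). Of 10 genes that form or inactivate oxysterols only 3 passed the filter on low counts. CH25H and CYP7B1, which make and inactivate oxysterols, had 0 counts in the 12 libraries.

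Genes akin to the members by family, name or activity formed a list of 22, with 15 tested. With bezafibrate against control 1 rose and 3 fell (median -0.10), and with ascites 0 rose and 3 fell (median -0.08). The shares of all tested genes called in these comparisons were 17.6% and 17.8%. ABCG2, a drug and urate exporter, rose by 0.29 (adjusted p = 0.00844). SMPD3, a neutral sphingomyelinase with only 13 to 38 reads per library, fell by 1.02 (adjusted p = 0.0212). Under ascites its ranges overlapped, at 1.08 to 2.63 CPM without the drug and 1.10 to 1.78 CPM with it. MBOAT7, an acyltransferase for phosphatidylinositol, fell by 0.19 (adjusted p = 0.000691) and LPCAT1, which makes saturated phosphatidylcholine, by 0.17 (adjusted p = 8.9e-05). Between LPCAT3 and LPCAT1 the directions were thus opposite, and both kept them with ascites present, where LPCAT1 fell by 0.22 (adjusted p = 1.7e-06).

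Among 18 PPAR targets, 16 were tested, and 16 rose with bezafibrate against control (median 1.68) and 15 in the combination against ascites (median 1.55). Of all tested genes, 17.6% and 17.8% were called in these comparisons, and 10.1% and 10.5% were called higher. PDK4 was given above, and beside it FABP4 rose by 3.69 (adjusted p = 1.88e-40), ANGPTL4 by 3.60 (adjusted p = 1.41e-36) and PLIN4 by 3.56 (adjusted p = 8.5e-24), genes of fatty acid binding, lipase inhibition and lipid droplets. The members' largest change in the first comparison, 0.95, was below these. Of 16 SREBP2 targets, which make and take up cholesterol, all 16 were tested. With bezafibrate against control 10 rose and 1 fell (median 0.21), and with ascites present 9 rose and 1 fell (median 0.17). The shares of all tested genes called there are those given for the PPAR targets. FDFT1, INSIG1 and MSMO1 rose by 0.54, 0.43 and 0.43 without ascites (adjusted p = 1.29e-14, 2.7e-08 and 1.71e-08). With ascites against control 0 of the 16 rose, 4 fell and 12 were not called (median -0.16), where 0.0882% of all tested genes were called. With ascites added to bezafibrate 0 rose, 6 fell and 10 were not called (median -0.17), where 0.128% of all tested genes were called. The members' medians in these comparisons were -0.07 and -0.06.

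Patterns over the 12 libraries were compared as the root mean square difference of log2 CPM, each gene taken relative to its own control mean, among the 11919 genes that averaged 1 CPM or more. It is a description, and the libraries of a group share their treatment. ABCA1, ABCG1, APOC1 and LPCAT3 lay within 0.0973 to 0.139 of each other, with ABCG1 and LPCAT3 the closest, while SMPDL3A lay 0.662 from ABCG1. Those members were grouped by their rise in both drug comparisons, so their closeness is not a separate result. For each of them, the non-member genes named next lay closer than any other member did. The genes most like ABCA1 were LTBP1 (0.0593), ITGA6 (0.0756) and LAMA3 (0.0844), where the median gene lay 0.575 away. Most like ABCG1 were ARHGAP26 (0.0604), RHOB (0.0876) and TMTC1 (0.0912), and most like APOC1 were GDE1 (0.0516), SNTB1 (0.0731) and TMTC1 (0.0795). LPCAT3 was nearest to TSC22D1 (0.0581), ZNF436 (0.0731) and FGFR1 (0.0754). APOE was nearest to HINT2 (0.0880), GDPD5 (0.0981) and FAM102A (0.103), and PLTP to GNAS (0.0261), PI4KA (0.0290) and FURIN (0.0302). PLTP changed so little that its median distance to any gene was 0.130.

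**Figure D4:**
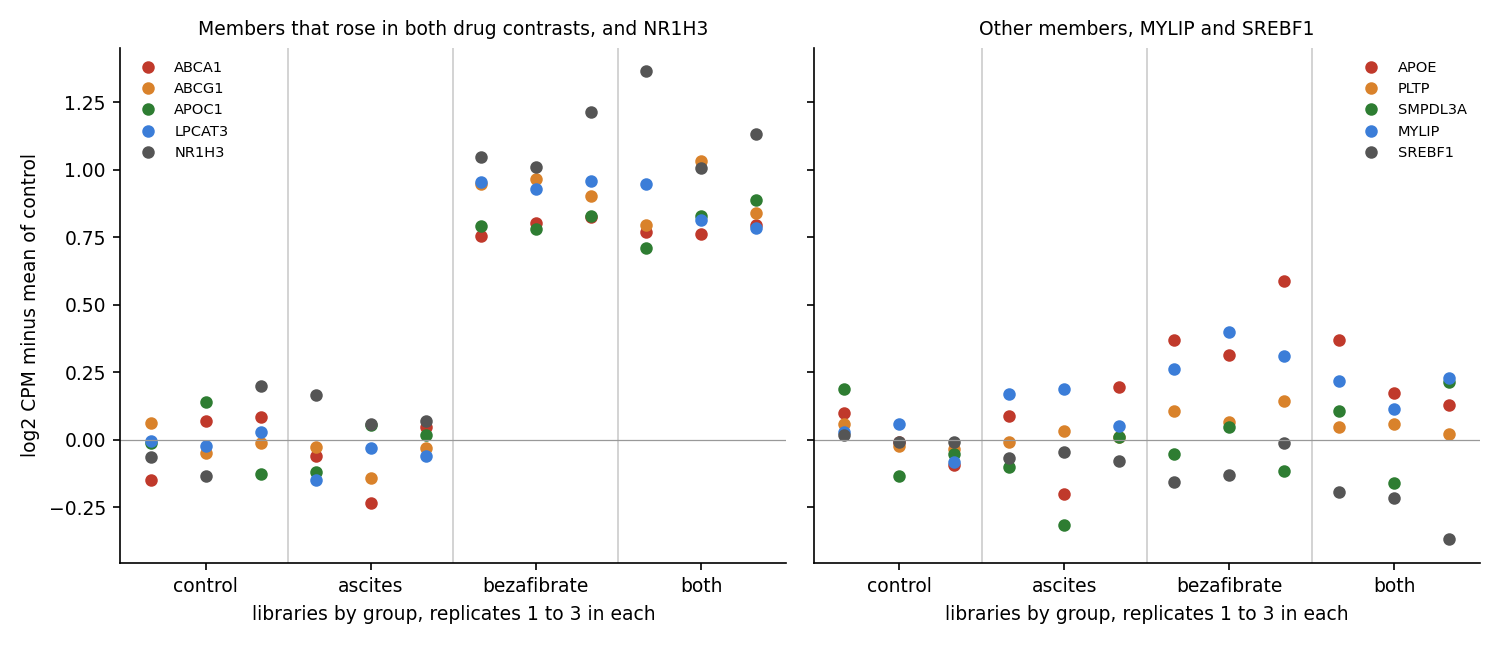
Log2 CPM minus the control mean of the same gene (vertical axis) in each library, by group (horizontal axis). The left panel shows the 4 members that rose in both drug comparisons and NR1H3, and the right panel the other 3 members with MYLIP and SREBF1. On the left the libraries with and without bezafibrate form separate bands, and on the right they overlap for each of the 5 genes.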

How the data were processed

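RNA sequencing of 12 CAOV3 libraries was analysed, 3 in each of 4 groups, grouped and numbered by the labels. Each library has its own deposited table, in which the authors give every gene a whole-number count. Per the submitters' processing notes, Trimmomatic 0.39, STAR 2.7.9a, RSEM 1.3.3, DESeq2 1.28.1 and GRCh38 were used, with no role or order given, so the counts may be rounded RSEM estimates. Strandedness and annotation release are not given in the sources used here.

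Genes were filtered with filterByExpr (minimum count 10, minimum total 15), which removed 7207 and left 12470. Counts were scaled by TMM and tested with edgeR 4.0.16 (glmQLFit with robust estimation, glmQLFTest, R 4.3.3) in 1 fit of the 12 libraries (a mean for each group, residual degrees of freedom 8). P-values were adjusted by Benjamini-Hochberg over all tested genes, and SEs and 95% intervals come from that fit. The procedure was tested on simulated data. Each pair of replicates differed by more than sampling noise (chi-square per degree of freedom 1.44 to 4.45). The alternatives were other scalings, no filter, DESeq2 1.42.0, a stricter threshold, the replicate number as a block, only the groups compared, and each library left out. Summing LPCAT3 with EMG1 and PLTP with CTSA, and averaging the drug effect over ascites, were added after seeing the data.

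The members, the gene lists and the markers were chosen with earlier results of these data known. Named were all members in every comparison, the up to 4 called genes of each list with the largest change with bezafibrate against control, NR1H3, NR1H2, MYLIP, SREBF1, ABCG4, ABCG5, ABCG8 and PDK4, and the 3 genes most like each member called with the drug (log2 CPM with a prior count of 2). EMG1 and CTSA, the oxysterol genes at 0 counts, and genes named beside a list's count were added after their values were seen. Promoter sequences are from RefSeq (GRCh38.p14), and gene positions from GENCODE 29. Some genes that this rule would name are not reported here.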

Additional observations from a re-analysis of the deposited data

How the results depend on the processing

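The number of members called in each of the 8 comparisons stayed within 1.5 times its main value under every alternative run. Over 945 alternative values of 56 member results, 924 kept their call, 21 lost it, 0 gained one and 0 called values changed sign. The 21 were APOE with bezafibrate against control (1) and PLTP in that comparison (8) and in the averaged drug effect (12). Most of the 56 results were not called in the main fit, so a kept call there means staying uncalled. Uncalled values changed sign in 30 alternatives, over 12 results. In bezafibrate against control, leaving out 1 library gave 4 to 6 members called and a log2 change of 0.34 to 0.48 for APOE and 0.09 to 0.13 for PLTP. Over all genes, ascites against control called 11 genes, but 59 with no filter, 33 with only its 2 groups, 4 at an adjusted p under 0.01 and 3 to 5 with 1 library left out. The combination against bezafibrate called 16, but 52, 7 and 6 under those 3 settings and 9 to 28 with 1 library left out. The interaction called 0, but 36 with no filter, 1 with the block and 3 without replicate 1 of the combination. The averaged ascites effect called 35, but 113 with no filter, 19 at the stricter threshold, 21 and 23 without ascites replicates 1 and 3, and 118 without replicate 3 of the combination. The combination against ascites called 2214, and 1475 at the stricter threshold. No member was among the genes gained, and the cause of these shifts was not tested.

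Replicate numbers are shared between groups. Over 18 same-number pairs the correlation of deviations ran from -0.135 to 0.0613, and 1 of 12 libraries correlated best with its own number. No pairing by number was seen with this measure, which cannot show that there was none. The labels do not say what else same-number samples share. With the number as a replicate block, 6 members were called with bezafibrate against control (2145 genes in all) and 4 in the combination against ascites (2154 genes), as without it. Among the members, depth limits ABCG1, APOE and SMPDL3A most, at 74 to 235 reads per library.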
